A study of Rattus norvegicus with 66 samples.

Results

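Messenger RNA of 7 related genes was followed in dorsal hippocampus of Long Evans rat pups on postnatal day (PND) 6. The genes are the 5 collapsin response mediator genes Crmp1, Dpysl2, Dpysl3, Dpysl4 and Dpysl5, together with doublecortin (Dcx) and doublecortin-like kinase 1 (Dclk1). They were taken by symbol from the 37777 genes of the deposited count tables, where each has 1 entry, and they were chosen because Dpysl5 was lower in male pups of the low bisphenol A dose. The RNA came from 64 pups, 41 males and 23 females, of 44 litters, sequenced in 66 libraries with total counts of 10644138 to 86206550 (median 20740650). Dpysl5 had 130 to 4121 counts per pup and each of the other members at least 744.

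All pups were of the same strain, with no genetic change, and exposed pups were still exposed through the dam when killed. Feeding controls (CONF, 4 males and 5 females) were offspring of dams on soy-free chow. Injection controls (CONSC, 5 males and 5 females) came from dams injected subcutaneously with the vehicle, which the sample labels give as saline and the methods as DMSO. Aroclor 1254, a commercial mixture of polychlorinated biphenyls, and bisphenol A, a plastic monomer with estrogenic activity, were mixed into the chow from before mating until PND 6. Their doses were 0.5 mg/kg per day (Aro0.5 and BPA0.5, 4 males each) and 5 mg/kg per day (Aro5, 6 males and 5 females; BPA5, 7 males and 4 females). Chlorpyrifos, an organophosphate insecticide, was injected at 1 mg/kg (CPF1, 4 males) or 3 mg/kg (CPF3, 7 males and 4 females) during gestation and again after birth. The tissue piece held hippocampus with some neighbouring cortex, and in bulk tissue fewer cells of a type and less RNA per cell cannot be told apart.

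Collapsin response mediators are cytosolic phosphoproteins of growing neurons. They bind tubulin and relay the signal of semaphorin 3A, which reaches the growth cone through neuropilin and plexin receptors and makes it collapse. Kinases such as CDK5 and GSK-3 phosphorylate them and thereby loosen their hold on microtubules. Dpysl2 (CRMP2) promotes axon formation, Dpysl3 (CRMP4) also bundles actin, Dpysl4 is known as CRMP3, and Dpysl5 (CRMP5) restrains the outgrowth promoted by Dpysl2. Doublecortin stabilizes the microtubules of migrating, immature neurons and is a usual marker of newly formed granule cells in the dentate gyrus. Dclk1 joins a doublecortin domain to a kinase domain.

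The promoter of Dpysl5, the member on which the results turn, is shown with that of Crmp1, which varied with it across pups, and that of Dcx, which varied little with it. Of the 7 members 6 were matched by symbol, all but Dpysl2. Each line gives the 250 bases before the RefSeq start in the build GRCr8, 5′ to 3′ along the gene. The build differs from that of the counts (Rnor_6.0). Capitals mark GGGCGG, the motif bound by Sp1-type factors, and, separately, TATAAA, the core promoter motif bound by the TATA-binding protein, with matches on both strands.
Dpysl5 (chr6:31379349-31379598, minus strand): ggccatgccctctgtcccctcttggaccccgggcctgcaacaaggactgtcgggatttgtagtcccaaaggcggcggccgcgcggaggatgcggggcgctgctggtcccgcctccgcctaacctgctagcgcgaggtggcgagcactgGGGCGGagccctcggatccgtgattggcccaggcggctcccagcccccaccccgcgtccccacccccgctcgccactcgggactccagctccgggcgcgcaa
Crmp1 (chr14:77780917-77781166, minus strand): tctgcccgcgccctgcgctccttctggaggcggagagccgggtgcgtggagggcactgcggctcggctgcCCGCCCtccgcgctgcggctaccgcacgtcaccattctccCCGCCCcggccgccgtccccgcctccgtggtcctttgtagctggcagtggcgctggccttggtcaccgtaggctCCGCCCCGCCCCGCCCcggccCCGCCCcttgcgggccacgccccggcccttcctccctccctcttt
Dcx (chrX:112304162-112304411, minus strand): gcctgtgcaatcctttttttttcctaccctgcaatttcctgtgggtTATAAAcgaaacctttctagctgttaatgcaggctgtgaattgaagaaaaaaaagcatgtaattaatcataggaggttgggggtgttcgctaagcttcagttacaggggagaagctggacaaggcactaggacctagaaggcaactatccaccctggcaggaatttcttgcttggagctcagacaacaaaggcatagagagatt
The Dpysl5 and Crmp1 windows were rich in G and C (72.8% and 76.4%, against a median of 51.2% over 33469 such windows) and held 26 and 30 CpG pairs. The Dcx window had 44.0% G and C and 2 CpG pairs. Of the windows not shown, Dpysl3 had 67.2% and 19 pairs, Dpysl4 54.4% and 5, and Dclk1 55.2% and 11. Dpysl3 and Dpysl4 also varied with Dpysl5 across pups, while Dclk1 varied little with it. A link between base content and this covariation was not tested. The letters GGGCGG occurred once upstream of Dpysl5 and 6 times upstream of Crmp1, and 30.5% of all windows hold them. TATAAA was present upstream of Dcx, nearer to the far end of the window than to the RefSeq start, and 12.9% of all windows hold it at any position. GCGTG, the core of the xenobiotic response element, occurred 2 times upstream of Crmp1 and in neither of the other windows, and 25.9% of all windows hold it. AGGTCA, the core element of nuclear receptors, was in none of the 3 windows, and 14.1% of all windows hold it. These matches describe letters in a short window and no binding was measured.

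Dpysl5 was the member with the widest range between groups, also without the group on which it was chosen. Its level is given as CPM, counts per 1000000 counts of the pup's library, and levels of different genes are not compared because CPM takes no account of transcript length. Mean Dpysl5 was 3.39-fold higher in the highest group, CPF3 females, than in the lowest, the BPA0.5 males on which the members were chosen, while the same ratio of group means was 1.24 for Crmp1, 1.37 for Dpysl2, 1.38 for Dpysl3, 1.41 for Dpysl4, 1.68 for Dcx and 1.31 for Dclk1. Without the BPA0.5 males the ratio was 2.96 for Dpysl5 and 1.11 to 1.68 for the others. For these 6 members each of the 12 steps between neighbouring groups, ordered by mean, was smaller than the pooled SD between pups. For Dpysl5, 10 of 12 steps were, and the widest step, 13.6 CPM or 1.87 pooled SD, separated CPF3 males from CONSC females. Small steps do not show that groups were alike. The means of Dpysl2 ran from 1290 to 1769 CPM with a pooled SD of 128.0 CPM. All male groups stood below all female groups in mean Dpysl5. How many of all genes were ordered in this way is not given here, and 27.1% of all genes were called between control females and males.

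**Figure D1:**
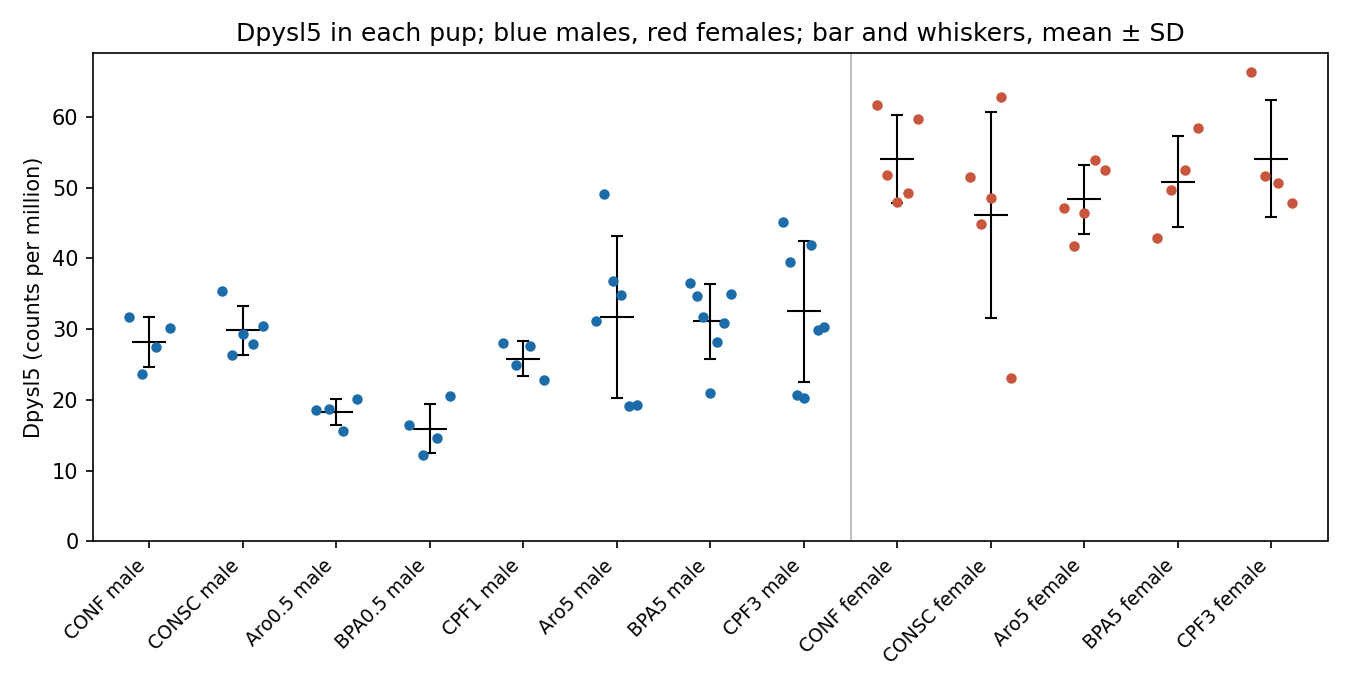
Dpysl5 in CPM (vertical axis) for every pup of the 13 groups (horizontal axis), males in blue and females in red, with the mean and SD of each group. The Aro0.5 and BPA0.5 males lie between 12.2 and 20.5 CPM, below the lowest control male at 23.6, and 22 of 23 females lie at or above 41.7 CPM.

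Dpysl5 was 31.6, 23.6, 27.5 and 30.2 CPM in the 4 CONF males and 35.4, 26.3, 29.3, 27.8 and 30.4 CPM in the 5 CONSC males. The 4 BPA0.5 males had 16.5, 12.2, 14.6 and 20.5 CPM. All 4 were below all 9 control males, at 54.7% of the control mean (log2 fold change -0.83, SE 0.11). Because the members were selected on this contrast, the value is a description without a test, and 0.415% of the 14702 genes with a mean of at least 1 CPM were likewise below every control male there. In the same contrast the other members had log2 fold changes of -0.27 (Dpysl3), -0.22 (Dpysl4), -0.15 (Crmp1), -0.08 (Dcx), 0.00 (Dclk1) and 0.00 (Dpysl2). Dpysl3 was 600.1, 598.1, 455.9 and 670.6 CPM in BPA0.5 males, 3 of them below the lowest control male, at 622.2.

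In Aro0.5 males Dpysl5 was lower than in controls, and the other members were not separated from them. The pups had 18.6, 18.7, 15.7 and 20.2 CPM, a mean of 18.3 ± 1.89 (SD, n = 4) against 29.1 ± 3.37 in controls (SD, n = 9). No Aro0.5 pup reached the lowest control, and 1.38% of genes with a mean of at least 1 CPM were below every control male in this way. By edgeR the log2 fold change was -0.60 (SE 0.11, adjusted p = 0.0194). Dpysl5 was the only 1 of 7 members called, with 0.124% of all genes called (20 of 16139). These pups were fitted together with the BPA0.5 males and compared with the same 9 controls. The adjusted p is therefore not independent of the choice of members. The call was lost without any 1 of the 4 Aro0.5 pups (adjusted p 0.0643 to 0.215), with feeding controls alone (adjusted p = 0.222) and with pups inside the stated dissection window (adjusted p = 0.120), while the log2 fold change stayed between -0.68 and -0.56.

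The remaining collapsin response mediators in Aro0.5 males were Dpysl3 at 639.4, 671.3, 526.2 and 500.4 CPM, of which 2 were below the lowest control male (log2 fold change -0.23, SE 0.10, adjusted p = 0.230), and Dpysl4 at 102.6, 108.2, 89.6 and 101.9 CPM (log2 fold change -0.10, SE 0.10). Crmp1 and Dpysl2 had log2 fold changes of 0.07 and 0.02. Dcx spread widely, with 750.3, 849.9, 594.2 and 394.7 CPM against 653.3 to 1351 CPM (median 816.5) in control males (log2 fold change -0.37, SE 0.20, adjusted p = 0.319). Dclk1 was 897.4, 964.2, 809.1 and 791.4 CPM, with 2 pups below the lowest control (log2 fold change -0.19, SE 0.10). The median of the members was -0.19, against 0.00 for all genes tested.

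Markers of neighbouring tissue had list medians away from 0 in Aro0.5 males, although no marker was called and the summed levels overlapped those of controls. The summed level of 7 neocortical markers was 297.0 to 600.2 CPM (median 401.4) in Aro0.5 and 392.7 to 830.1 CPM (median 648.4) in control males, with a median log2 fold change of -0.50. Thalamic markers had a median of +0.50 (6 genes), striatal markers -0.96 (6 genes), choroid plexus markers -0.55 (5 genes) and hippocampal subfield markers +0.21 (7 genes). None of the neocortical, thalamic, striatal or choroid plexus markers was at 0 counts in any pup. Across the 64 pups, after subtracting group means, Dpysl5 had r = 0.45 with the neocortical list. It had r = 0.32 with hippocampal subfield, 0.09 with thalamic, -0.16 with choroid plexus and -0.32 with striatal markers. The part of tissue composition in the Aro0.5 value was not tested. In BPA0.5 males the neocortical sum was 477.3 to 701.5 CPM (median 569.0, list median -0.29). Astrocyte markers summed to 1357 to 1487 CPM (median 1452) there and to 1031 to 1414 CPM (median 1317) in control males, a list median of 0.25, and the list medians of blood and striatal markers were 0.38 and 0.24. No marker was called, and the part of these lists in the BPA0.5 values was not tested.

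In CPF1 males no member passed the edgeR test. Dpysl5 was 28.1, 24.9, 27.6 and 22.8 CPM, with 1 pup below the lowest control (log2 fold change -0.16, SE 0.11, adjusted p = 0.997), and the other log2 fold changes lay between -0.09 and 0.09. None of the 7 members and 0% of the 16139 genes were called, and an unadjusted p under 0.05 was found for 322 genes, and DESeq2 also called no member. The difference between Aro0.5 or BPA0.5 and CPF1 was not tested, and all 3 share the same controls.

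At the high doses the male groups overlapped the controls in every member, as in nearly all genes. Of the 14702 genes with a mean of at least 1 CPM, 0.184%, 0.102% and 0.15% had every Aro5, BPA5 or CPF3 male below every control male. In the same order, 0.0612%, 0.034% and 0.034% had every male of the group above every control male. Dpysl5 was 19.1 to 49.2 CPM (median 33.0) in Aro5, 20.9 to 36.6 CPM (median 31.7) in BPA5 and 20.3 to 45.1 CPM (median 30.3) in CPF3 males. Below the lowest control male were the Aro5 littermates 120-1y (19.1 CPM) and 120-2y (19.3 CPM), the BPA5 male 86-9y (20.9 CPM) and the CPF3 males 38-1y (20.7 CPM) and 40-3y (20.3 CPM). Above the highest control male, at 35.4 CPM, were 2 Aro5, 1 BPA5 and 3 CPF3 males, so that each high-dose group spread to both sides of the controls. The fitted log2 fold changes of Dpysl5 were 0.14 (SE 0.18), 0.10 (SE 0.17) and 0.17 (SE 0.17), and their sign turned to -0.26, -0.30 and -0.23 when the form of the library title, described further on, was a covariate.

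The pups low in Dpysl5 within Aro5 were not low in all members. In 120-1y and 120-2y Dpysl4 was 74.4 and 96.0 CPM, and Crmp1 was 1393 and 1274 CPM, each below the lowest control male. The same 2 pups had the highest Dclk1 of their group, 1214 and 1336 CPM, and 1183 and 1059 CPM of Dcx. The CPF3 male 38-1y had 87.3 CPM of Dpysl4, 1460 CPM of Crmp1 and 1294 CPM of Dcx.

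Dpysl2 and Dcx had positive fitted values in all 3 high-dose male groups (Dcx in BPA5 males turned to just under 0 with the form of the library title as a covariate), and neither passed the test. Positive values were not particular to them. In the main fit the 7 members lay between 0.03 and 0.31 in Aro5, -0.08 and 0.12 in BPA5, and 0.03 and 0.32 in CPF3 males. The medians of the members were 0.13, 0.06 and 0.14. Dpysl2 was 1550 to 1797 CPM (median 1730) in Aro5, 1596 to 1916 CPM (median 1667) in BPA5 and 1587 to 2008 CPM (median 1774) in CPF3, against 1391 to 1783 CPM (median 1539) in control males. Its log2 fold changes were 0.13 (SE 0.06, adjusted p = 0.357), 0.12 (SE 0.05, adjusted p = 0.536) and 0.18 (SE 0.05, adjusted p = 0.224). Dcx was 879.3 to 1183 CPM in Aro5 males and 858.7 to 1477 CPM in CPF3 males (log2 fold changes 0.31, SE 0.16, and 0.32, SE 0.16). In BPA5 males it ranged from 524.5 CPM in 81-1y to 1478 CPM in 88-3y (log2 fold change 0.09, SE 0.16). Inside the dissection window the Dcx values were 0.50, 0.19 and 0.44 in Aro5, BPA5 and CPF3, and those of Dpysl2 were 0.20, 0.16 and 0.21. With the title form as a covariate those of Dpysl2 were 0.03, 0.01 and 0.08, and no value passed the test under either setting. The summed neocortical markers were 645.7 to 1066 CPM in Aro5, 419.1 to 1052 CPM in BPA5 and 515.9 to 1053 CPM in CPF3 males against 392.7 to 830.1 CPM in control males, with list medians of 0.61, 0.10 and 0.44 and no marker called. Striatal markers had list medians of -0.01, -0.70 and -0.84, and blood markers -0.38, -0.10 and -0.45, again with no marker called. In the same order, microglia markers had -0.12, -0.06 and -0.23, and astrocyte markers -0.08, -0.07 and -0.22. Oligodendrocyte lineage markers had -0.09, 0.02 and -0.19, choroid plexus markers -0.17, -0.19 and -0.30, and immature neuron markers 0.08, 0.05 and 0.21. No marker of these lists was called either. The part of these lists in the member values was not tested. Of the 7 members 0 were called by edgeR and 0 by DESeq2 in each high-dose male group, with 0.195%, 0.189% and 0.159% of 16393 genes called in Aro5, BPA5 and CPF3, and an unadjusted p under 0.05 was found for 1929, 1492 and 2064 genes. The share in Aro5 males was 4.96% (818 genes) when only pups inside the dissection window were used, and 0 members were called there too.

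**Figure D2:**
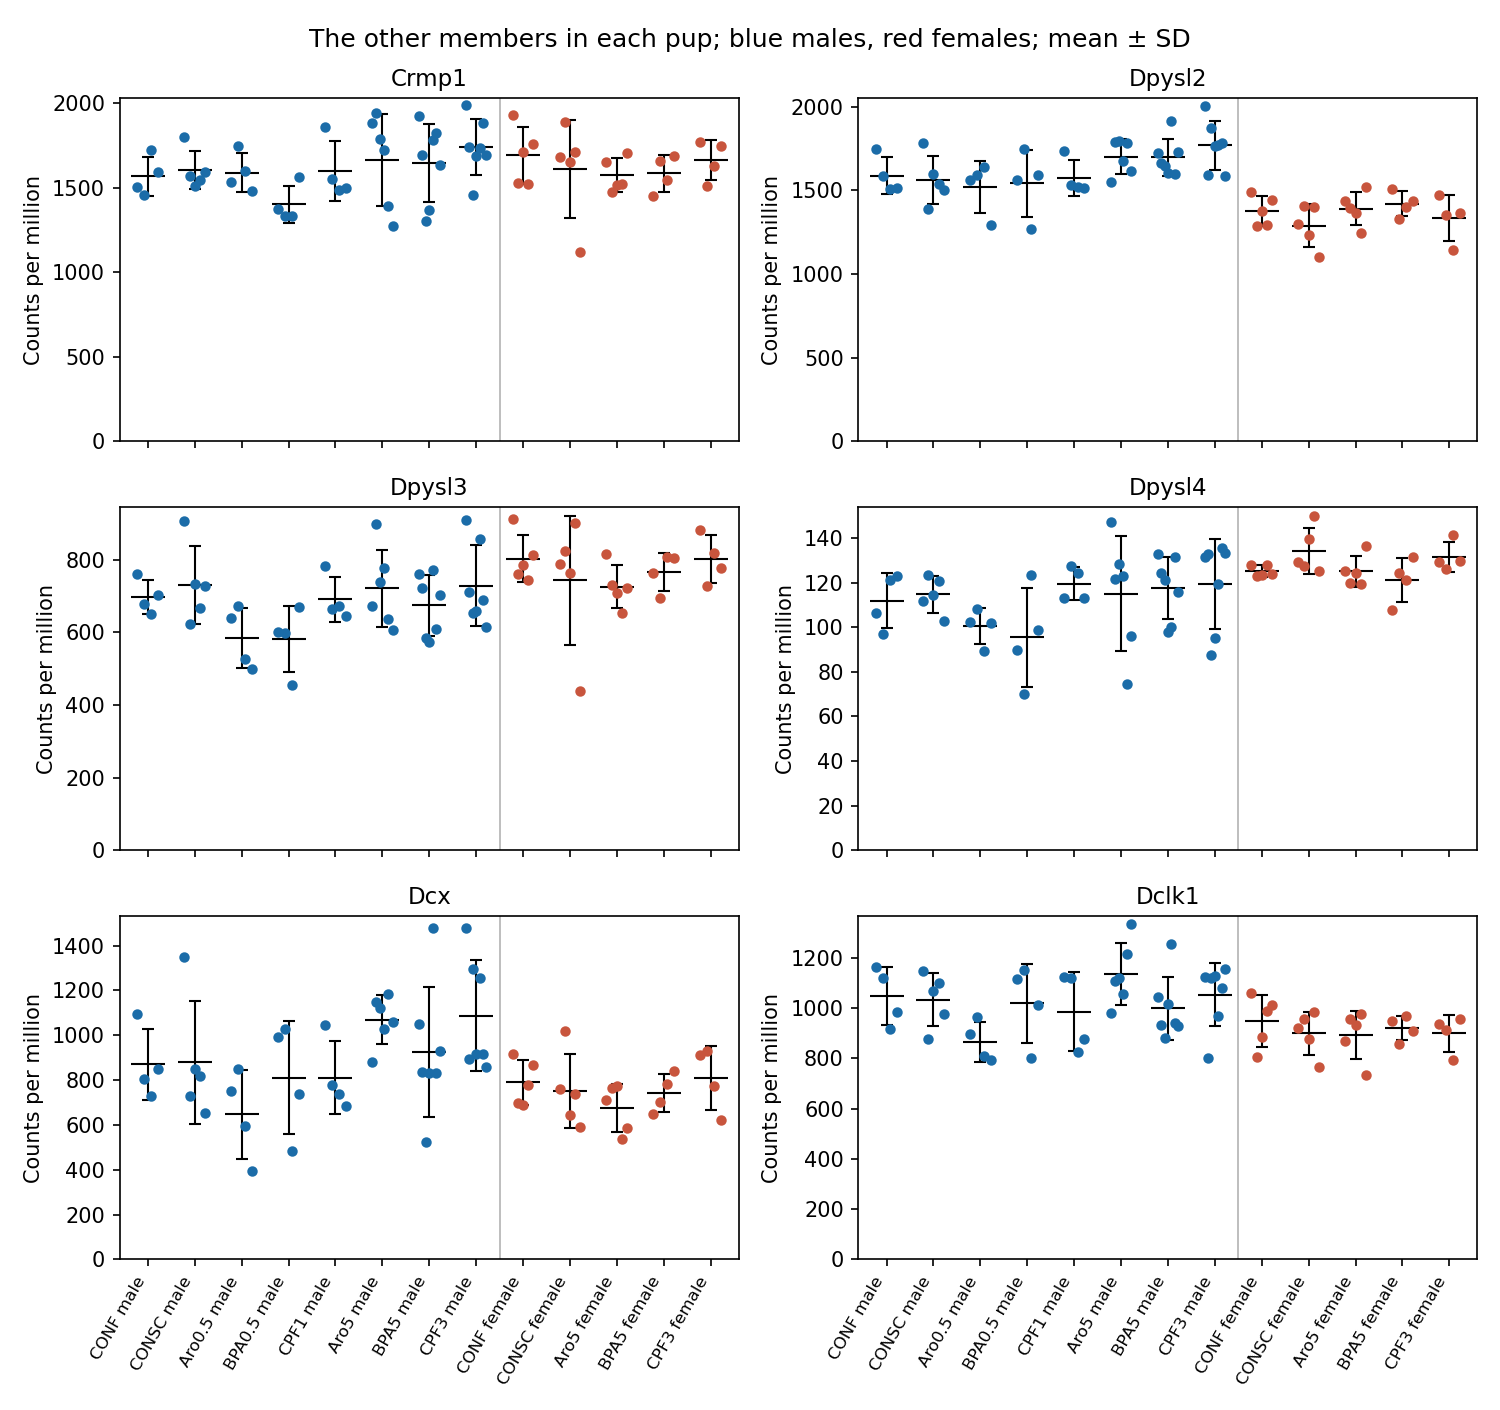
CPM (vertical axes, from 0) of the other 6 members in every pup of the 13 groups, males in blue and females in red, with mean and SD. Dpysl2 lies lower in females (1100 to 1518 CPM) than in most males (1269 to 2008 CPM), and Dcx runs from 394.7 to 1478 CPM over all pups.

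The titles of the male libraries come in 2 forms. All low-dose and all but 1 of the control male libraries end in a capital Y (form A), and all high-dose male libraries end in a lower-case y (form B). In control females, whose titles end in a lower-case x, form A has a low line after the group name and form B does not. The control male N2-2y has 1 title of each kind by both signs, and no form could be read for exposed females. What the forms stand for is not given in the sources used here, and the 2 signs disagree in the high-dose males, whose titles have both the low line and the lower-case y. Whether the forms mark the same thing in both sexes is therefore not known. Between high dose and control the form and the treatment cannot be told apart in males beyond the single pup sequenced under both forms, the CONF male N2-2y. Its 2 libraries gave 24.1 CPM (form A) and 38.7 CPM (form B) of Dpysl5, and 82.1 and 128.8 CPM of Dpysl4. In the same pair Crmp1 was 1340 and 1657 CPM, Dcx 1264 and 936.4 CPM, and Dclk1 1287 and 1048 CPM. Thus Dpysl4 and Dpysl5 were 1.57- and 1.60-fold higher, and Dcx 0.741-fold as high, in the second library of 1 animal. The CONF female N4-3x, whose 2 libraries are labelled with different dissection times, gave 48.8 and 50.1 CPM of Dpysl5 and at most a 1.06-fold difference in any member.

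The low-dose males could be compared within form A, an alternative chosen after the data had been seen. Control males then had 28.3 ± 3.59 CPM of Dpysl5 (SD, n = 9), and Aro0.5 males were at 64.6% and BPA0.5 males at 56.4% of that mean. The Aro0.5 log2 fold change was -0.56 with an adjusted p of 0.0598, so that the call was not kept.

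In control pups Dpysl5 and Dpysl4 were higher, and Dpysl2 lower, in females than in males. Dpysl5 was 23.1 to 62.8 CPM (median 50.4) in 10 control females and 23.6 to 35.4 CPM (median 29.3) in 9 control males. A single female, CONSC 9-1x at 23.1 CPM, was below all control males, and the other 9, with at least 44.8 CPM, were above all of them. The log2 fold change was 0.81 (SE 0.15, adjusted p = 6.78e-05). Female 9-1x was also lowest of the control females in Dpysl3 (438.6 CPM), Crmp1 (1122 CPM), Dpysl2 (1100 CPM), Dcx (589.0 CPM) and Dclk1 (763.8 CPM).

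Dpysl2 was 1100 to 1492 CPM (median 1339) in control females and 1391 to 1783 CPM (median 1539) in control males (log2 fold change -0.21, SE 0.05, adjusted p = 0.00327). The ranges overlapped between 1391 and 1492 CPM. Dpysl4 was 122.8 to 149.9 CPM (median 127.6) in females and 97.0 to 123.6 CPM (median 114.6) in males, touching only at their ends (log2 fold change 0.22, SE 0.08, adjusted p = 0.0409). This call was lost on leaving out any 1 of 7 pups (adjusted p up to 0.0872) and without the filter on low counts (0.0565). Dpysl3 (0.14), Crmp1 (0.09), Dcx (-0.15) and Dclk1 (-0.14) did not pass the test.

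These 3 of 7 members stand against 27.1% of all genes called (4681 of 17282). With form A as read in each sex, 5 control females against 9 control males, Dpysl5 kept its call (log2 fold change 0.66, SE 0.15, adjusted p = 0.00683; 44.0 ± 12.0 against 28.3 ± 3.59 CPM) and so did Dpysl2 (-0.29, adjusted p = 0.0111), with 11.7% of genes called (1847 of 15849). Dpysl4 had a log2 fold change of 0.20 there (adjusted p = 0.136). Inside the stated dissection window Dpysl2 lost its call (-0.14, adjusted p = 0.113).

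Markers of cell types and regions were also called in this contrast. Of 7 maturing neuron markers 4 were higher in females (list median 0.35), among them Rbfox3 (0.67), and of 7 hippocampal subfield markers 4 (0.33), among them Wfs1 (0.80). Of 7 neocortical markers 2 were higher, Tbr1 (0.96) and Cux2 (0.52), with a list median of 0.24, and of 10 immature neuron markers 2, Neurod2 (0.83) and Sox11 (0.82), with a list median of 0.02. Of 7 oligodendrocyte lineage markers 2 were higher and 2 lower. Of 8 progenitor and dividing cell markers Hes5 (1.31) was higher and Ccnb1 (-0.26) lower. Of 6 microglia markers C1qc (0.77) was higher, as was Cldn5 (0.51) of 4 endothelial markers. The summed neocortical markers were 392.6 to 969.4 CPM in control females and 392.7 to 830.1 CPM in control males, and the part of these lists in the member values was not tested.

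**Figure D3:**
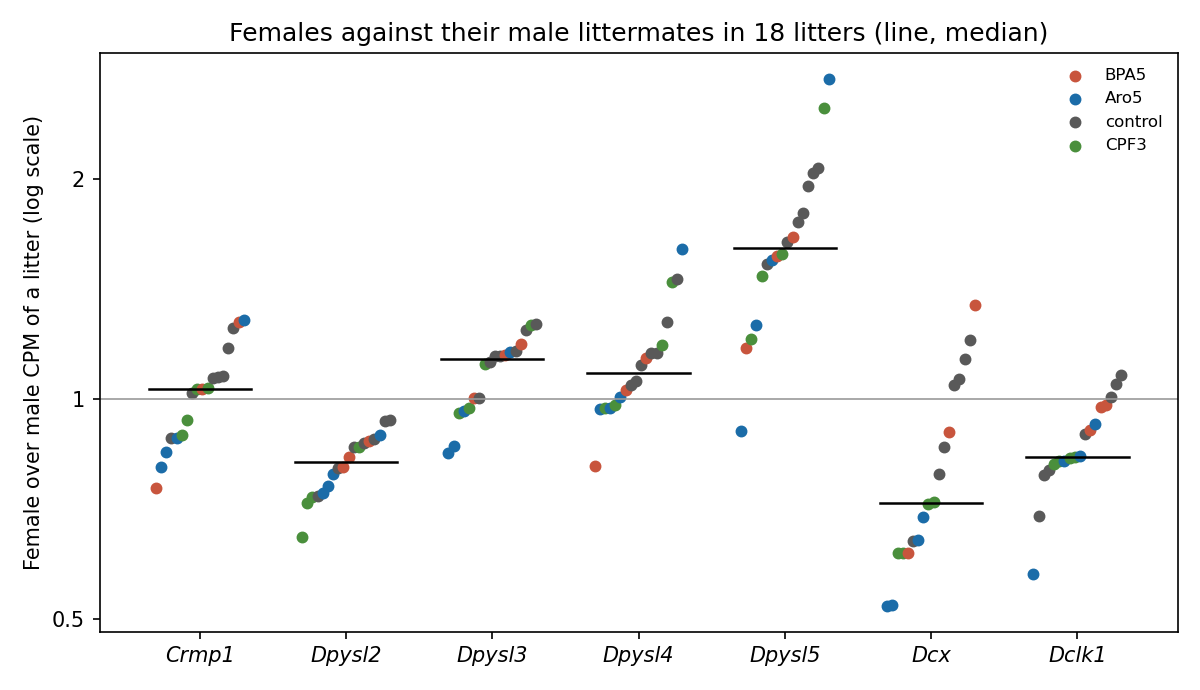
CPM of a female divided by that of the male of the same litter (vertical axis, log scale) for each member, 1 point per litter with both sexes, coloured by treatment, with the median as a line. Dpysl5 lies above 1 in 17 of 18 litters and Dpysl2 below 1 in all 18.

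Within litters Dpysl5 and Dpysl2 had the same directions. In 18 litters with pups of both sexes (pups of 1 sex averaged), females had more Dpysl5 than their brothers in 17, with a median ratio of 1.61 (range 0.904 to 2.73). The ratio was 1.79 (median of 7) in control litters and 1.55 (median of 11) in exposed litters. Dpysl2 was lower in the female in 18 of 18 litters (median ratio 0.819). Females were higher in 13 of 18 litters for Dpysl3 and for Dpysl4, in 11 for Crmp1, in 5 for Dcx and in 3 for Dclk1. The share of all genes with such litter counts is not given here. The 27.1% of all genes called between control females and males is another measure and does not give this share. The 7 control litters hold pups of that comparison. The Dcx ratio had a median of 1.04 in control litters and 0.642 in exposed litters, and this difference was not tested on litters. Males of the exposed litters have form B titles. Those of the control litters have form A, with N2-2y under both. Between control and exposed litters, exposure and title form can therefore not be told apart in the ratios of Dcx, Dpysl5 or any other member.

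In exposed females no member passed the test against control females. Dpysl5 was 41.7 to 53.9 CPM (median 47.1) in Aro5, 42.9 to 58.4 CPM (median 51.1) in BPA5 and 47.8 to 66.3 CPM (median 51.2) in CPF3 females, all within or just above the control range. The log2 fold changes of the 7 members lay between -0.18 and 0.13. edgeR and DESeq2 called 0 of 7 members, and edgeR called 0% of 16992 genes, in each of the 3 groups, and an unadjusted p under 0.05 was found for 548, 694 and 1493 genes.

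The sex by treatment interaction asks whether the response of females differed from that of males. No member passed it for Aro5, BPA5 or CPF3 with edgeR or DESeq2, where 0.0984%, 0.0405% and 0.0463% of 17282 genes were called, and 1541, 482 and 967 genes had an unadjusted p under 0.05. The largest value was that of Dcx for Aro5, where the female minus the male log2 fold change was -0.50 (SE 0.21, adjusted p = 0.477). Between feeding and injection controls no member passed either. The largest log2 fold changes of CONSC against CONF were 0.07 in males and -0.24 in females, both for Dpysl5. With edgeR 0 of 7 members and 0.013% of 15387 genes were called in males (152 at an unadjusted p under 0.05) and 0 of 7 and 0% of 16618 genes in females (713 at an unadjusted p under 0.05), and DESeq2 called no member.

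**Figure D4:**
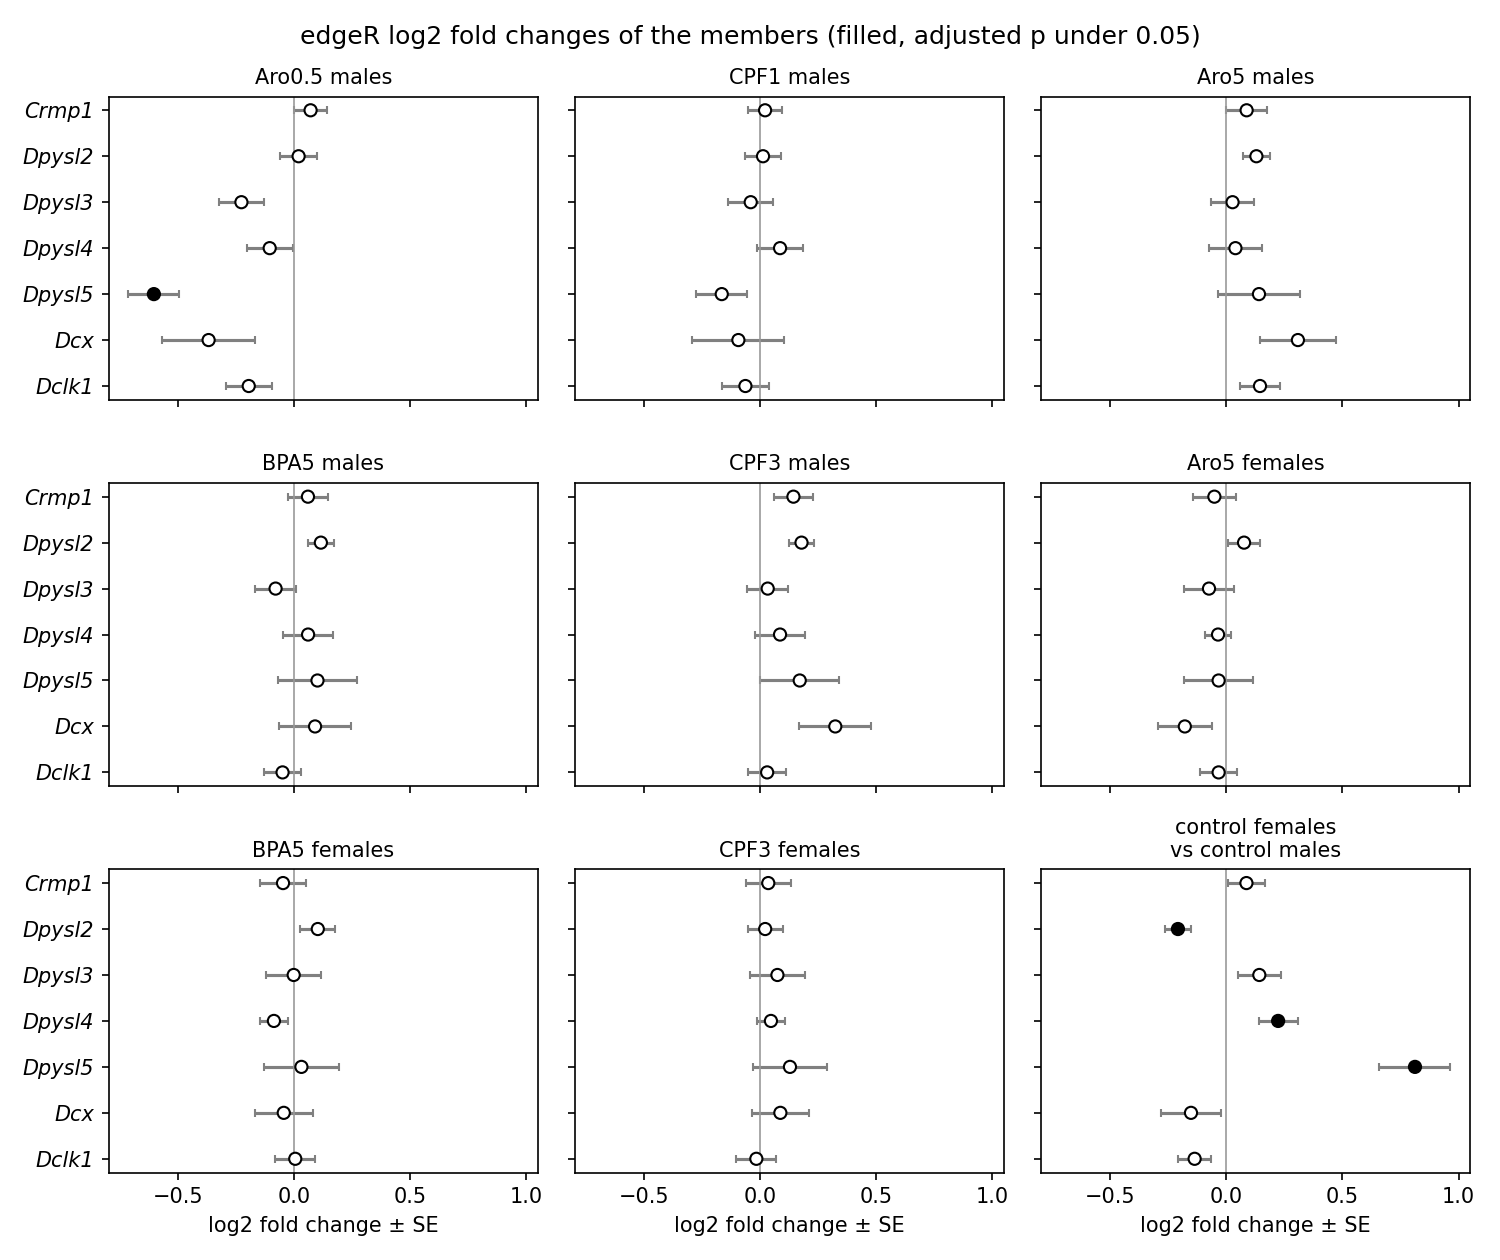
Log2 fold change with its SE (horizontal axes) of each member (vertical axes) in 9 comparisons fitted with edgeR, filled where the adjusted p was under 0.05. Filled points are Dpysl5 in Aro0.5 males (-0.60) and Dpysl5 (0.81), Dpysl4 (0.22) and Dpysl2 (-0.21) between the sexes in controls.

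The other genes of the pathway were read from lists of 14 semaphorin 3 ligands and receptors, 22 kinases, phosphatases and partners of the collapsin response mediators, 13 doublecortin relatives and partners, and 12 genes of the growing neurite (tubulins, stathmins and growth-associated membrane proteins). In the 5 male and 3 female treatment comparisons tested, 1 gene of these lists was called. This was the tubulin gene Tuba1a in Aro0.5 males (log2 fold change 0.40, SE 0.08, adjusted p = 0.0461), opposite in sign to Dpysl5. No gene was called in Aro0.5 males inside the dissection window, so that this call was lost there. In Aro0.5 males the list medians were -0.02, -0.02, -0.01 and 0.15, against 0.00 for all genes. The related kinase Dclk2 (-0.06), the neuronal tubulin Tubb3 (0.18) and the dendritic microtubule protein Map2 (-0.11) did not pass the test there.

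Between control females and males more genes of these lists were called, as was the case for all genes, of which 27.1% were called (11.7% within form A). Of the 14 semaphorin genes 3 were higher and 0 lower in females, with Sema3f (0.47), the plexin Plxna1 (0.34) and Sema3b (0.29). Of 21 kinases and partners tested (Ppp2ca, listed at 0 counts in 63 of 64 pups, was not), 5 were higher and 2 lower, led by the CDK5 activators Cdk5r2 (1.38) and Cdk5r1 (0.67) and by Mical3 (0.60). The lower ones were the kinase Dyrk2 (-0.20) and the phosphatase subunit Ppp2r2b (-0.18). Of 13 doublecortin relatives 3 were higher and 0 lower, namely Map6 (0.55), Kif1a (0.40) and Ppp1r9b (0.29), while Dclk2 (-0.01) and Map2 (-0.13) did not pass the test. Of 12 growing neurite genes 5 were higher and 2 lower. The higher ones were the growth-associated genes Marcksl1 (2.11), Basp1 (1.12) and Gap43 (0.17), the tubulin Tubb3 (0.47) and the stathmin Stmn3 (0.33). The lower ones were Marcks (-0.34), a relative of Marcksl1, and Tubb2a (-0.35), whose symbol has 2 entries in the count tables, so that its reads may be split. The list medians were 0.07, 0.04, -0.01 and 0.14, against -0.02 for all genes.

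Genes of this group also differed between the 2 libraries of male N2-2y. Marcksl1 was 10.6 CPM in form A and 28.2 CPM in form B, Tubb3 1137 and 2034 CPM, and Basp1 166.9 and 235.2 CPM. In female N4-3x they were 63.2 and 67.2, 1883 and 2141, and 398.1 and 385.3 CPM. Map2 was 1801 and 1395 CPM in N2-2y, lower in form B like Dclk1. The part of the library in the difference between the sexes was not tested beyond the comparison within form A.

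Across pups some members varied together more than others. The values that follow are Pearson's r of log2 CPM over 64 pups after subtracting each group mean, given as a description. The pups share litters, library forms and the composition of the dissected piece. Dpysl3 and Dpysl5 (r = 0.74), Crmp1 and Dpysl3 (0.75) and Crmp1 and Dpysl5 (0.72) varied together, and so did Dpysl4 and Dpysl5 (0.63). Dcx and Dclk1 (0.60), Dpysl2 and Dcx (0.69) and Dpysl2 and Dclk1 (0.60) also varied together. These values are not unusual for Dclk1 and Dpysl4, since 5% of all genes had r above 0.65 with Dclk1 and above 0.78 with Dpysl4. Dpysl5 showed little relation to Dcx (0.18) or Dclk1 (-0.02), and Dpysl4 was inverse to Dclk1 (-0.36) and Dcx (-0.29). Dpysl3 had 0.72 with Dpysl2 and 0.63 with Dcx.

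**Figure D5:**
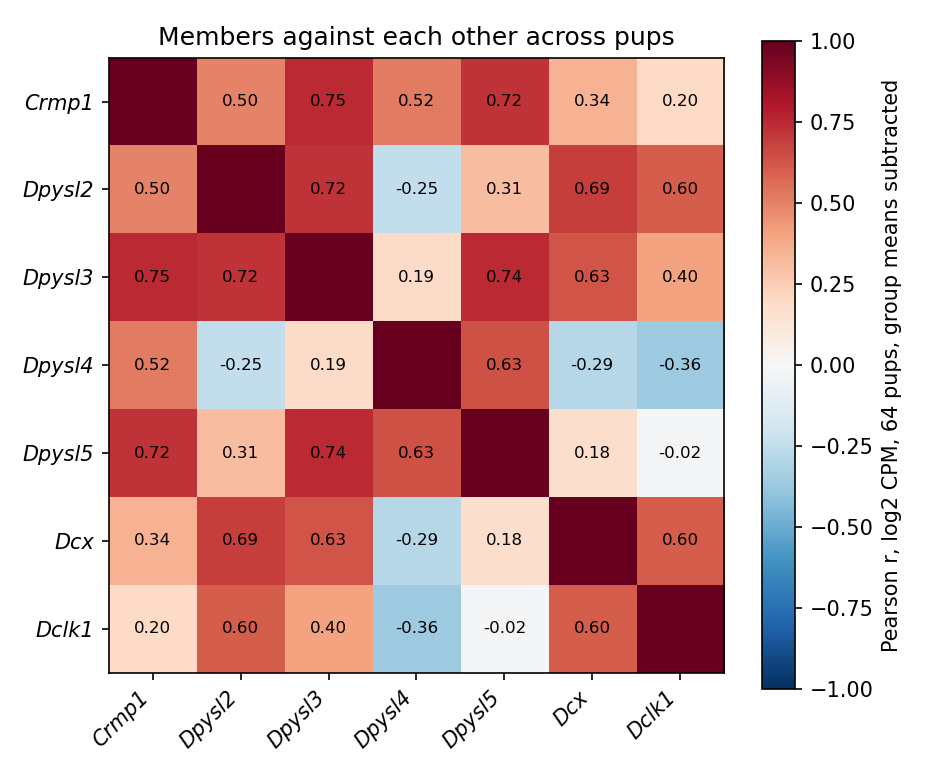
Pearson's r between members over 64 pups, from log2 CPM with group means subtracted (colour and printed values). The values run from -0.36 (Dpysl4 and Dclk1) to 0.75 (Crmp1 and Dpysl3).

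Some of these values were not alike within the sexes, a difference that was not tested. In females Crmp1 and Dpysl2 had r = 0.76 and Dpysl2 and Dpysl5 0.62, above Dcx and Dclk1 (0.44). Dpysl5 and Dclk1 had r = -0.25 within male and 0.51 within female groups, and Dpysl4 and Dclk1 -0.47 and 0.09. Dpysl2 and Dcx had 0.80 and 0.45. These differences are described only and rest on 41 and 23 pups.

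Genes most like each member were found among 17366 genes. Crmp1 varied most closely with the microtubule protein tau, Mapt (0.93), followed by Nkd2 (0.91) and Slc29a4 (0.88). Dpysl5 varied with the receptor phosphatase gene Ptprs (0.90), Cdc42bpb (0.90) and Mcf2l (0.90), and Dpysl3 with Agrn (0.87), Farp1 (0.84) and Unc13b (0.84). Dpysl2 varied with Kidins220 (0.85), Nwd2 (0.82) and Unc13b (0.81), and Dpysl4 with Bai1 (0.93), Smg9 (0.92) and Acap3 (0.92). Dcx varied with Tbc1d14 (0.93), Brox (0.89) and Cep170 (0.89), and Dclk1 with Map2 (0.91), the glutamate receptor subunit Gria3 (0.91) and the calcineurin subunit Ppp3cb (0.91). High values were common, since the 95th percentile over all genes was 0.49 for Dpysl3, 0.52 for Dpysl2, 0.55 for Crmp1, 0.60 for Dcx, 0.61 for Dpysl5, 0.65 for Dclk1 and 0.78 for Dpysl4.

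Against marker lists, Dcx varied with immature neuron markers (0.63) and neocortical markers (0.63) and varied inversely with microglia (-0.77), oligodendrocyte lineage (-0.59) and hippocampal subfield markers (-0.58). Dpysl5 varied with immature neuron markers (0.56), with the kinases and partners (0.65) and with the growing neurite genes (0.63). Crmp1 varied with neocortical markers (0.66) and with the growing neurite genes (0.76). The hippocampal subfield markers, among them Prox1 and Wfs1, had a summed level of 182.0 to 276.5 CPM in control males, and Fibcd1 was listed at 0 counts in every pup. The zeros of Fibcd1 and Ppp2ca may come from how the annotation assigned reads, which was not tested, and do not show that the genes were silent.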

How the data were processed

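Dorsal hippocampus was sequenced as TruSeq stranded mRNA, single-end, 1 library per pup except for 2 pups with 2 libraries, whose counts were summed. According to the methods the authors aligned reads with STAR to Rnor_6.0 and obtained gene counts from featureCounts. The deposited values are raw counts. Versions are not given in the sources used here. CPM was computed from these counts. Males of low dose, males of high dose and females were each fitted with their controls with edgeR 4.0.16 (R 4.3.3), TMM scaling, its filter on low counts, quasi-likelihood tests and Benjamini-Hochberg adjustment over all genes (threshold 0.05). CONF and CONSC were fitted on their own within each sex. One fit of controls and high doses across both sexes gave the control sex contrast and the interactions. Log2 CPM for correlations used a prior count of 2. DESeq2 1.42.0, its size factors, no filter, the dissection window (10.30 to 13.20, 11 pups outside), controls of one route, a litter block and leaving out pups were alternatives. Scripts were tested on simulated data. The members and lists were chosen with earlier results of these data known. Named genes were the members, list genes called, and the 3 genes most like each member. Pups of a litter share a dam, and some groups hold 2 pups of one litter.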

Additional observations from a re-analysis of the deposited data

Results flagged for a closer look

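In 3 of 91 combinations of member and group, 1 pup stood apart from the rest of its group by Dixon's criterion, which chance meets in about 1 of 20 groups. Dpysl2 was 1737 CPM in the CPF1 male 16-7y, above 1530 CPM in the next pup. Dpysl2 was 1916 CPM in the BPA5 male 88-3y, above 1730 CPM in the next pup. Dcx was 1351 CPM in the CONSC male 10-2y, above 847.7 CPM in the next pup. None of the 3 belongs to a comparison in which that member was called in the treated males, and the control male 10-2y enters every male comparison.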

How the results depend on the processing

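In 12 of 14 comparisons the number of members called was the same under every alternative. The exceptions were Aro0.5 males (1 member) and control females against males (3 members). In Aro0.5 males the number was 0 inside the dissection window, against same-route controls only, with name form as a covariate (Dpysl5 adjusted p = 0.0596) and with libraries of form A only, and 0 to 1 on leaving out 1 pup. DESeq2 kept the Dpysl5 call (log2 fold change -0.60, adjusted p = 0.000175). Between the sexes the number was 2 without the filter (Dpysl4 adjusted p = 0.0565), 2 inside the dissection window (without Dpysl2) and 2 with form A only (without Dpysl4), and 2 to 4 on leaving out 1 pup. Dpysl4 was called in 45 of 52 such fits (adjusted p up to 0.0872) and was lost without the males N2-2y, N3-4y, 10-2y, 13-1y or 8-4y or the females 8-2x or 6-7x. Dpysl3 was called without female 9-1x (0.23, adjusted p = 0.0185). With litter as a replicate block 3 members were called, and Dpysl5 had a log2 fold change of 0.75 (adjusted p = 0.000543). The alternative restricted to form A was chosen after seeing the data. Of 532 alternative values none reversed a call, and the cause of each lost call was not tested. A sign change occurred in 28 of them, in 25 results that were not called (log2 fold changes up to 0.17 in size), among them Dpysl5 in all 3 high-dose male groups with name form as a covariate, where the form is carried by 1 form B library among the controls. The number of all genes called moved more. In Aro5 males (32) it was 101 with DESeq2, 818 inside the dissection window, 17 with same-route controls and 0 with name form as a covariate. In BPA5 males (31) these were 63, 8, 14 and 0, and in CPF3 males (26) 82, 18, 18 and 0. In Aro0.5 males (20) they were 258, 0, 1 and 13, and 13 with form A only. For the interactions with Aro5 (17), BPA5 (7) and CPF3 (8) the number was 34, 15 and 16 with DESeq2, 609, 0 and 1 inside the window, and 11, 8 and 5 without the filter, and for BPA5 it was 11 with the litter block. Exposed females (0) had 1, 1 and 3 genes with DESeq2, control males of both routes (2) had 0 inside the window, and the sexes (4681) differed in 1847 genes with form A only. Dpysl5 had the fewest counts of the members, 130 to 4121 per pup.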
